A study of Mus musculus with 6 samples.

Results

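Bile acid handling by the liver was described through 10 genes, taken as the rows of the deposited count table whose gene name was Cyp7a1, Cyp7b1, Cyp8b1, Cyp27a1, Slc10a1, Slco1a1, Abcb11, Nr0b2, Nr1h4 or Baat. Each name matched 1 row, so 10 of the 43346 genes in the table were members, and all 10 passed the filter on low counts that left 19352 genes. RNA was from whole livers of mice. The first group was 3 libraries labelled S100a11 shRNA (numbers 2, 3 and 2600), a short hairpin RNA against S100a11 given in an adeno-associated virus 8 construct, with the genotype label knockdown. The second was 3 libraries labelled scrambled shRNA (numbers 28, 30 and 31), with the genotype label control. Both groups were on the FFC diet, the study's dietary model of metabolic dysfunction-associated steatohepatitis, so no library came from a mouse on a control diet or without virus. Strain, sex and age are not given in the labels. Nor do they say whether the libraries came from separate animals, so every p-value reflects variation among libraries, which may be technical. The promoter driving the hairpin is not given in the labels either.

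Hepatocytes make bile acids from cholesterol. The classical route begins with Cyp7a1 and the alternative route with Cyp27a1 and Cyp7b1, while Cyp8b1 adds the hydroxyl group that distinguishes cholic acid and Baat joins bile acids to taurine or glycine. Slc10a1 (NTCP) and carriers such as Slco1a1 (OATP family) return bile acids from blood across the sinusoidal membrane, and Abcb11 (the bile salt export pump) moves them into the bile canaliculus. Nr1h4 (FXR) is the nuclear receptor that senses bile acids, and one of its classical targets is Nr0b2 (SHP), which represses Cyp7a1 and Cyp8b1.

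The targeted gene lay below the scrambled range in 2 of the 3 libraries labelled S100a11 shRNA. S100a11 stood at 16.0, 3.55 and 3.41 CPM in the libraries labelled S100a11 shRNA 2, 3 and 2600, against 15.9, 22.9 and 30.0 CPM in scrambled libraries 28, 30 and 31, where CPM is the count relative to the library total after TMM scaling. The library labelled S100a11 shRNA 2 was therefore level with the lowest scrambled library. Over all 6 libraries S100a11 missed the call threshold of 0.05 (log2 change -1.57 ± 0.56, SE, edgeR adjusted p = 0.0951, exact two-sided permutation p = 0.2, with 0.1 the smallest possible), and without library 2 it passed (log2 change -2.75, edgeR adjusted p = 0.000441). Library totals ranged between 53517387 and 69874237 counts in libraries 2, 3 and 2600, and between 57717111 and 78091845 counts in the scrambled group. The gene Gm26917 took 3.99% to 10.85% of counts in libraries 2, 3 and 2600 and 3.16% to 4.42% within the scrambled group.

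Of the 10 bile acid genes 7 were higher in the libraries labelled S100a11 shRNA and 0 lower at an edgeR adjusted p under 0.05, where 5.82% of all tested genes were called higher and 8.28% lower. The 7 were Slco1a1, Cyp7b1, Cyp8b1, Slc10a1, Cyp27a1, Nr1h4 and Baat. Cyp7a1, Abcb11 and Nr0b2 did not pass. In 8 of the 10 genes every library labelled S100a11 shRNA lay above every scrambled library, against 16.5% of all tested genes, and 0 lay below every scrambled library, against 18.1%. Abcb11 and Nr0b2 were the genes whose groups overlapped. The median log2 change was 0.93 over the 10 genes and 0.04 over all tested genes. Scaling by library totals alone lowered both medians, to 0.56 and -0.32, and left 4 calls (Slco1a1, Cyp7b1, Cyp8b1 and Slc10a1) where 2.05% of all genes were called higher. Without library 3, scrambled library 28 or scrambled library 30 the calls numbered 4, 4 and 3, where 2.16%, 2.55% and 1.12% of all genes were called higher. Without library 2, whose S100a11 level lay within the scrambled range, the same 7 genes were called and 9.13% of all genes were called higher.

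**Figure D1:**
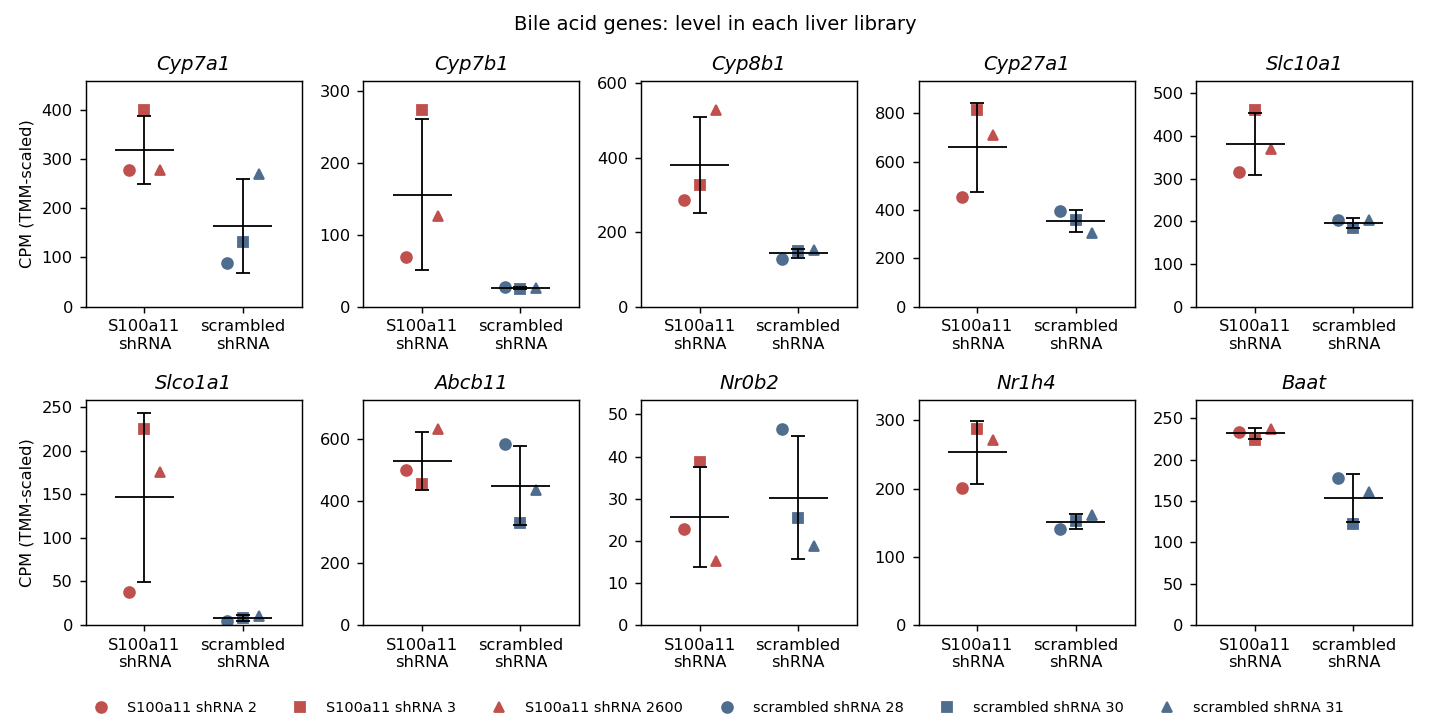
CPM of each of the 10 bile acid genes (vertical axes, starting at 0) in the libraries labelled S100a11 shRNA (red, left) and the scrambled shRNA libraries (blue, right), with 1 marker shape per library. Horizontal lines are group means and bars are SD (n = 3 each). The groups do not overlap in 8 of the 10 genes, the exceptions being Abcb11 and Nr0b2.

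Both sinusoidal uptake carriers were higher, and Slco1a1 had the largest change of the 10 genes. Slco1a1 (ENSMUSG00000041698, mm10 chromosome 6 from 141907282 to 141946962, minus strand) held 38.0, 225 and 176 CPM in the libraries labelled S100a11 shRNA 2, 3 and 2600, against 4.52, 8.39 and 10.7 CPM in scrambled libraries 28, 30 and 31. The lowest library of the first group was the one whose S100a11 level lay within the scrambled range, and its Slco1a1 still exceeded that of each scrambled library. Relative to the scrambled mean Slco1a1 stood 4.83-fold, 28.6-fold and 22.4-fold higher in libraries 2, 3 and 2600. The fitted change was 18.6-fold, a log2 change of 4.22 ± 0.62 (SE, edgeR adjusted p = 0.00585).

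Slc10a1, the sodium-dependent taurocholate carrier and the main route of conjugated bile acids into hepatocytes, lies on chromosome 12 from 80953185 to 80968079 on the minus strand (ENSMUSG00000021135). It stood at 315, 460 and 368 CPM in libraries 2, 3 and 2600, against 203, 183 and 204 CPM in scrambled libraries 28, 30 and 31. The scrambled libraries lay close together, with a coefficient of variation of 5.89%, and the groups did not overlap. The carrier was 1.94-fold higher (log2 change 0.95 ± 0.17, SE, edgeR adjusted p = 0.010). Without scrambled library 30 the adjusted p of Slc10a1 was 0.0557.

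Among the synthesis enzymes Cyp7b1, the oxysterol hydroxylase of the alternative route, changed most. Cyp7b1 (ENSMUSG00000039519, chromosome 3 from 18071950 to 18243338, minus strand) held 68.5, 273 and 126 CPM in libraries 2, 3 and 2600, against 27.7, 24.0 and 25.7 CPM in scrambled libraries 28, 30 and 31. The scrambled values were nearly alike, with a coefficient of variation of 7.25%, while the libraries labelled S100a11 shRNA varied by 67.7%. The enzyme was 6.05-fold higher (log2 change 2.60 ± 0.43, SE, edgeR adjusted p = 0.00786). The log2 change was 1.91 without library 3, which had the highest value, and the call stood without any single library.

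Cyp8b1, the hydroxylase required for cholic acid, is a gene of 1 exon on chromosome 9 from 121914356 to 121916305 (ENSMUSG00000050445, minus strand). It stood at 286, 327 and 527 CPM in libraries 2, 3 and 2600, against 128, 149 and 152 CPM in scrambled libraries 28, 30 and 31. All 3 libraries of the first group were well above the scrambled range, including library 2. The gene was 2.67-fold higher (log2 change 1.41 ± 0.23, SE, edgeR adjusted p = 0.00786), and the call stood without any single library and with library totals alone.

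Cyp27a1, the mitochondrial sterol hydroxylase that opens the alternative route, rose by less. This gene (ENSMUSG00000026170, chromosome 1 from 74713574 to 74737892, plus strand) held 454, 812 and 709 CPM in libraries 2, 3 and 2600, against 396, 358 and 306 CPM in scrambled libraries 28, 30 and 31. Library 2 was only 1.29-fold above the scrambled mean, and libraries 3 and 2600 were 2.30-fold and 2.01-fold above it. The fitted change was 1.87-fold (log2 change 0.90 ± 0.23, SE, edgeR adjusted p = 0.0339). That call ended with library totals alone (adjusted p = 0.103) and without library 3, 2600, 28, 30 or 31 (adjusted p of 0.0684 to 0.119).

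Cyp7a1, the rate-limiting enzyme of the classical route, did not pass the threshold. Cyp7a1 (ENSMUSG00000028240, chromosome 4 from 6265612 to 6275633, minus strand) held 279, 399 and 278 CPM in libraries 2, 3 and 2600, against 87.7, 131 and 270 CPM in scrambled libraries 28, 30 and 31. Scrambled library 31 reached almost the level of libraries 2 and 2600, so the groups were separated by a narrow gap and the scrambled libraries varied 3.09-fold among themselves. The estimate was 1.95-fold with a 95% interval of 1.10-fold to 3.48-fold (log2 change 0.97 ± 0.37, SE, edgeR adjusted p = 0.116). Without scrambled library 31 the log2 change was 1.55 (edgeR adjusted p = 0.0198), and DESeq2 and limma voom with quality weights also called it (adjusted p = 0.0357 and 0.0427).

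Baat, the enzyme that conjugates bile acids to taurine or glycine, had the smallest change among the called genes and, within the libraries labelled S100a11 shRNA, the most even values of the 10. It lies on chromosome 4 from 49489422 to 49506557 on the minus strand (ENSMUSG00000039653). Baat stood at 234, 224 and 237 CPM in libraries 2, 3 and 2600, against 178, 122 and 160 CPM in scrambled libraries 28, 30 and 31. The coefficient of variation was 2.89% in the libraries labelled S100a11 shRNA and 18.6% in the scrambled libraries, with no overlap. The gene was 1.51-fold higher (log2 change 0.59 ± 0.16, SE, edgeR adjusted p = 0.0428), a call that ended with library totals alone (adjusted p = 0.277), upper-quartile factors (0.0605) or edgeR's legacy fit (0.0506), and without library 3, 2600, 28, 30 or 31 (0.057 to 0.161).

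Abcb11, which pumps conjugated bile salts into bile, showed no detectable change. Abcb11 (ENSMUSG00000027048, chromosome 2 from 69238282 to 69342616, minus strand) held 499, 455 and 633 CPM in libraries 2, 3 and 2600, against 585, 329 and 435 CPM in scrambled libraries 28, 30 and 31. The groups overlapped, and scrambled library 28 was higher than libraries 2 and 3. The estimate was 1.18-fold with a 95% interval of 0.817-fold to 1.69-fold (log2 change 0.23 ± 0.23, SE, edgeR adjusted p = 0.547). Its sign turned with library totals alone (log2 change -0.13). Genes annotated on the opposite strand within Abcb11 held at most 2 counts, and small RNA genes within Cyp7b1 and Slco1a1 held at most 1.45% and 0.693% of those genes' counts.

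Of the bile acid sensor and its classical target, the sensor was called higher and the target was not, and the difference between them was not tested. Nr1h4 (ENSMUSG00000047638, chromosome 10 from 89454234 to 89533585, minus strand), which encodes FXR, stood at 201, 288 and 271 CPM in libraries 2, 3 and 2600, against 141, 152 and 162 CPM in scrambled libraries 28, 30 and 31. The groups did not overlap, and the receptor gene was 1.67-fold higher (log2 change 0.74 ± 0.17, SE, edgeR adjusted p = 0.022). The Nr1h4 call ended with library totals alone (adjusted p = 0.121) and without library 3, 28, 30 or 31 (0.0617 to 0.0908).

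Nr0b2, which encodes the repressor SHP and has 2 exons on chromosome 4 from 133553376 to 133556536 (ENSMUSG00000037583, plus strand), held 22.9, 38.6 and 15.3 CPM in libraries 2, 3 and 2600, against 46.6, 25.5 and 18.8 CPM in scrambled libraries 28, 30 and 31. Values varied 2.53-fold within the first group and 2.48-fold within the scrambled group, and the groups overlapped. The estimate was 0.847-fold with a 95% interval of 0.462-fold to 1.55-fold (log2 change -0.24 ± 0.39, SE, edgeR adjusted p = 0.728). Its sign turned without scrambled library 28 (log2 change 0.22).

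**Figure D2:**
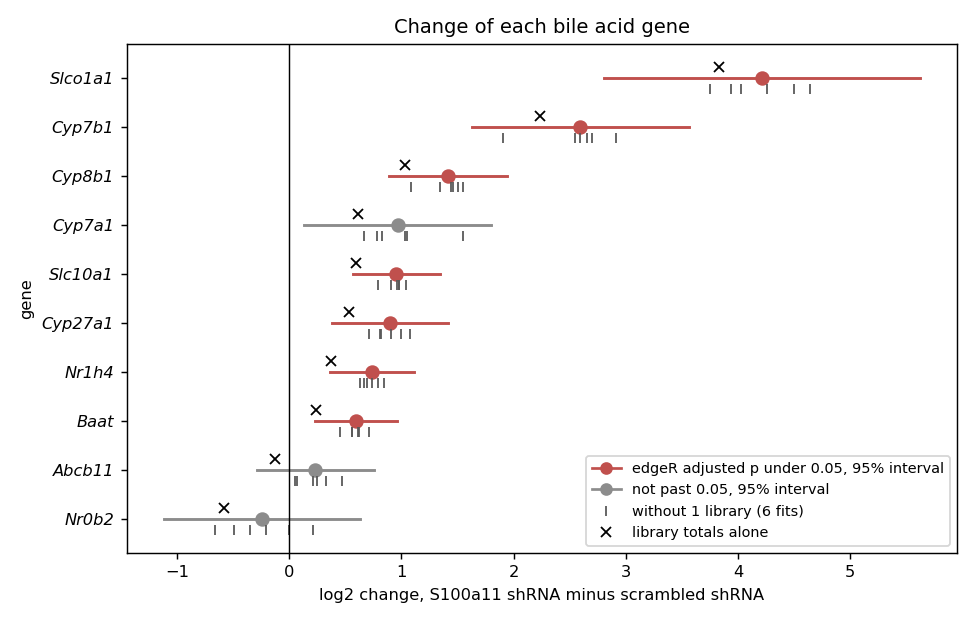
Log2 change of each bile acid gene, libraries labelled S100a11 shRNA minus scrambled shRNA libraries (horizontal axis), with 95% intervals from edgeR. Red genes passed an adjusted p of 0.05, ticks are fits without 1 library and crosses are fits scaled by library totals alone. The 7 called genes have intervals above 0, Cyp7a1 is wide at 0.14 to 1.80, and the crosses sit left of the circles in all 10 genes, below 0 for Abcb11 and Nr0b2.

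The libraries labelled S100a11 shRNA were not alike across these genes. Library 3 held the highest value of the 3 in 7 of the 10 genes, and library 2600 in 3. Library 2, whose S100a11 level lay within the scrambled range, held the lowest value in 6, and a relation between the 2 was not tested. The median fold over the scrambled mean across the 10 genes was 1.56 in library 2, 2.30 in library 3 and 1.83 in library 2600. Library 2 lay above all scrambled libraries in 8 of the 10 genes, library 3 in 8 and library 2600 in 9, against 36.3%, 39.4% and 37.5% of all tested genes. With library 2 left out the log2 changes of the 7 called genes ran between 0.56 for Baat and 4.64 for Slco1a1, and Cyp7a1, Abcb11 and Nr0b2 stood at 1.03, 0.24 and -0.20 (edgeR adjusted p = 0.0806, 0.517 and 0.766).

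Sequences upstream of the start sites were read for 4 genes, a pair that rose (Slco1a1 and Cyp8b1) and the pair whose groups overlapped (Abcb11 and Nr0b2), to show what lies directly before genes that behaved differently. Each window holds the 250 bases before the start in RefSeq's annotation of GRCm38.p6, 5′ to 3′ on the gene's strand, and 7 of the 10 genes had an entry. Capitals mark letters found on either strand, the nuclear receptor hexamer AGGTCA, the HNF4 site CAAAGTCCA, the TATA box TATAAA and the STAT5 site TTCNNNGAA.
Slco1a1 chr6:141946963-141947212, minus strand: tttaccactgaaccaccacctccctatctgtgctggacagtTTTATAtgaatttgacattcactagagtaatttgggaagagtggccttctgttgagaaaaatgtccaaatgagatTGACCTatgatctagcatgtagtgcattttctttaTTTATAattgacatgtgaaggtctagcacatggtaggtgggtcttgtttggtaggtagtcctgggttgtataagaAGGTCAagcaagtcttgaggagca
Cyp8b1 chr9:121916306-121916555, minus strand: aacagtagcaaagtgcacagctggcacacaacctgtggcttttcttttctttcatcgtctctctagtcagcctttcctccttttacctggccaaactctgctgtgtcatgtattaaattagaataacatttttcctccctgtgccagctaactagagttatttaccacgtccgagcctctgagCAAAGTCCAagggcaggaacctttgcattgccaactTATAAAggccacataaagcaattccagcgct
Abcb11 chr2:69342617-69342866, minus strand: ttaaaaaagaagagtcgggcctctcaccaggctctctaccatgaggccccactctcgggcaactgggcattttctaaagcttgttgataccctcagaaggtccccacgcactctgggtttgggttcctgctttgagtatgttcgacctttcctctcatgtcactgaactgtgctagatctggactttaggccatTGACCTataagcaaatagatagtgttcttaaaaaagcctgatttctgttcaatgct
Nr0b2 chr4:133553126-133553375, plus strand: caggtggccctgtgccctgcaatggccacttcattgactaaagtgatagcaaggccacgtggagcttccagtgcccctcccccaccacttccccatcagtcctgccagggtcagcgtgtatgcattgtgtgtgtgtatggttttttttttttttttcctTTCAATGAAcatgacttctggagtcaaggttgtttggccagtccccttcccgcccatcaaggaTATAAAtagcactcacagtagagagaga

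The Slco1a1 window held the hexamer on its own strand at -24 and on the opposite strand at -134, counted from the start to the match's first base, and TATAAA on the opposite strand at -209 and -99. The Cyp8b1 window held the HNF4 letters at -67, which occur in 0.384% of all 32851 promoter windows of the same length, and TATAAA at -31. Abcb11 held 1 hexamer on the opposite strand at -56, and Nr0b2 held the STAT5 letters at -91 and TATAAA at -28. Called genes whose windows are not printed also held such letters. Slc10a1 held the STAT5 letters at -53 and TATAAA on the opposite strand at -128 in 1 window. Another Slc10a1 window held the hexamer at -87, and Nr1h4 held the hexamer on the opposite strand at -214. The hexamer is in 14.0% of all windows, TATAAA in 12.4% and the STAT5 letters in 7.02%. The FXR response element was searched only as a perfect inverted repeat of the hexamer spaced by 1 base. The LRH-1 site was searched only as CAAGGTCA, and both contain the hexamer. They were in 0 of the 7 genes' windows and in 0.00609% and 1.33% of all windows. The perfect repeat is in 2 of 32851 windows, so its absence from these windows shows nothing. In the Abcb11 window aggccatTGACCT differs from that repeat by 1 letter, and sites with mismatches were not counted. These are matches of letters in a short window and say nothing about binding.

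Levels were compared between genes per kilobase of annotated exon. Cyp27a1 was the most abundant of the 10 in every library, at 303 ± 84.8 CPM per kilobase in the libraries labelled S100a11 shRNA and 162 ± 20.8 in the scrambled libraries (SD, n = 3 each). In the first group Cyp8b1 came next (195 ± 66.3), then Slc10a1 (173 ± 33.3), Baat (119 ± 3.45), Nr1h4 (110 ± 19.9) and Abcb11 (103 ± 18.0), with Cyp7a1 following at 76.3 ± 16.7. Neighbours in this order whose means differed by more than the larger of their SDs were Cyp27a1 and Cyp8b1, Slc10a1 and Baat, and Abcb11 and Cyp7a1, and the other neighbours did not. In the scrambled libraries Slc10a1 (89.4 ± 5.27), Abcb11 (87.4 ± 24.9), Baat (79.2 ± 14.7), Cyp8b1 (73.1 ± 6.65) and Nr1h4 (65.9 ± 4.61) followed Cyp27a1. There, by the same measure, Cyp27a1 differed from Slc10a1, Cyp8b1 from Nr1h4, Nr1h4 from Cyp7a1, Nr0b2 from Cyp7b1 and Cyp7b1 from Slco1a1, and the other neighbours did not. Slc10a1 is shorter in the deposited table than in the annotation used, and by the table's length it stood at 228 CPM per kilobase in the libraries labelled S100a11 shRNA and 117 in the scrambled libraries, which places it above Cyp8b1 in the first group.

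The order at the low end was not the same in both groups. Cyp7b1 stood at 72.0 ± 48.7 CPM per kilobase in the libraries labelled S100a11 shRNA, a smaller difference from Cyp7a1 than its SD, and at 11.9 ± 0.86 in the scrambled libraries, where Cyp7a1 stood at 39.0 ± 22.9. Slco1a1 was the least abundant of the 10 in each scrambled library, at 0.856 to 2.03 CPM per kilobase, but reached 7.20, 42.7 and 33.4 in libraries 2, 3 and 2600. Nr0b2 was the least abundant in libraries 3 and 2600.

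Ratios of 2 genes within a library do not depend on how libraries are scaled, and 4 were tested. The ratio of Slco1a1 to Slc10a1 in counts per kilobase was 0.0503, 0.204 and 0.199 in libraries 2, 3 and 2600, against 0.00928, 0.0191 and 0.0219 for scrambled libraries 28, 30 and 31. It was 8.08-fold higher with no overlap, and its exact two-sided permutation p of 0.1 is the smallest that 3 against 3 libraries allow (0.2 after Benjamini-Hochberg adjustment over the 4 ratios). The ratio of uptake carrier to export pump, Slc10a1 to Abcb11, was 1.48, 2.37 and 1.36 in libraries 2, 3 and 2600, against 0.812, 1.30 and 1.09 for scrambled libraries 28, 30 and 31, with no overlap and the same exact p of 0.1 (adjusted 0.2). The design cannot take either below 0.05. Without library 2 the log2 differences of these 2 ratios were 3.68 and 0.77.

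The ratio of Cyp7b1 to Cyp7a1, the hydroxylases of the alternative and the classical route, was 0.474, 1.32 and 0.876 in libraries 2, 3 and 2600, against 0.610, 0.354 and 0.183 for scrambled libraries 28, 30 and 31. Library 2 lay within the scrambled range, and the exact permutation p was 0.2 (adjusted 0.267). The ratio of Cyp8b1 to Cyp7a1 was 2.19, 1.75 and 4.06 in libraries 2, 3 and 2600, against 3.12, 2.43 and 1.2 for scrambled libraries 28, 30 and 31, and did not separate the groups (log2 difference 0.26, exact permutation p = 0.7). Its sign turned without library 2600 or without scrambled library 31.

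**Figure D3:**
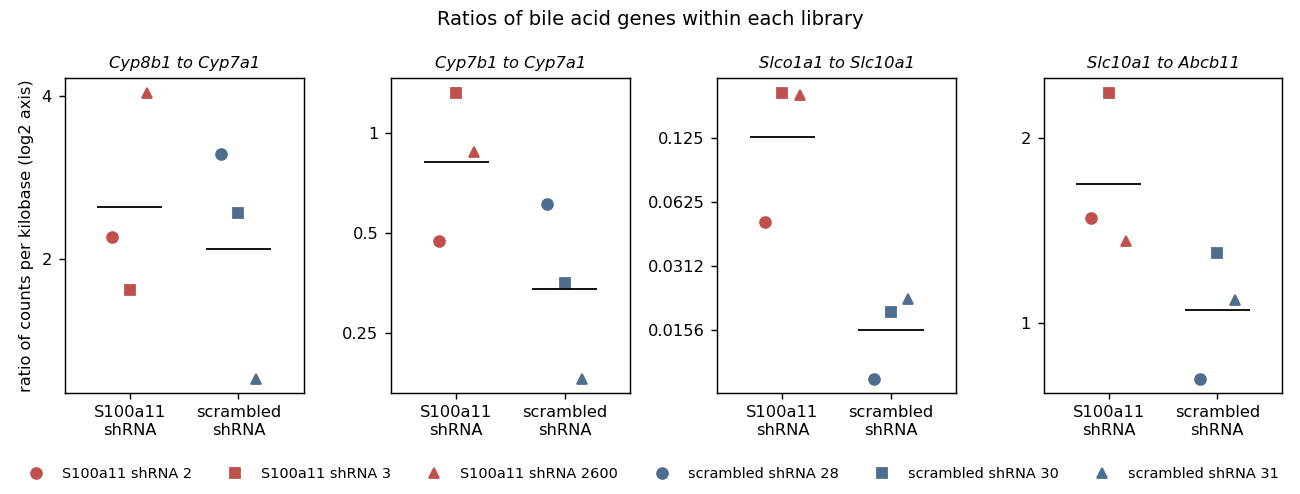
Ratio of counts per kilobase of 2 bile acid genes within each library (log2 vertical axes, a separate range per panel), libraries labelled S100a11 shRNA in red on the left and scrambled libraries in blue on the right. Lines are geometric means of 3 libraries. Slco1a1 to Slc10a1 and Slc10a1 to Abcb11 separate the groups, while the 2 ratios to Cyp7a1 overlap.

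Markers of liver cell types moved between the groups as well, and in whole tissue fewer cells of a type and less RNA per cell cannot be told apart. With TMM scaling all 10 hepatocyte markers had a positive log2 change, 3 of them past the threshold (Pck1, Tat and Serpina1c, the last from a family of near-identical copies), and their summed level was 50000 to 64380 CPM in the libraries labelled S100a11 shRNA against 36640 to 46100 in the scrambled libraries. With library totals alone 7 of these 10 markers had a positive change. Over all tested genes, with TMM scaling, 5.82% were called higher and 8.28% lower. Of 10 cholangiocyte markers 9 fell, with sums of 159 to 182 CPM in the S100a11 shRNA libraries against 516 to 637 CPM in the scrambled ones, and of 10 stellate cell markers 7 fell, with sums of 462 to 864 against 1054 to 1514 CPM. The stellate cell markers not called were Lrat, Reln and Acta2 (log2 change 0.05, -0.17 and -0.41). Of 10 macrophage markers 5 fell, with sums of 263 to 591 against 564 to 860 CPM. Those 5 were Cd68, Lyz2, Cd14, Trem2 and Gpnmb. Adgre1, Csf1r, Clec4f, Cd5l and Vsig4 were not called (log2 change -0.40, -0.55, 0.0004, -0.42 and -0.54). Without library 3, 2600, 28, 30 or 31 the lower calls numbered 1 for stellate cell markers and 3 for macrophage markers. In those fits 2.54% to 6.29% of all tested genes were called lower. Of 10 endothelial markers 1 rose and 1 fell (0 fell without library 3, 2600, 28, 30 or 31), with sums of 971 to 1368 against 1055 to 1110 CPM. The intestinal genes Fgf15, Cdx2 and Alpi held 0 counts in every library, and of the 5 intestinal markers tested Vil1 and Cdh17 fell, with 0 calls without scrambled library 30. Both were near the floor, with means of 0.311 and 0.00533 CPM in the S100a11 shRNA libraries against 1.23 and 0.163 CPM in the scrambled ones. The part of these shifts in the bile acid results was not tested. Ratios to the hepatocyte markers follow, also without a test.

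Set against the hepatocyte markers, Slco1a1, Cyp7b1 and Cyp8b1 lay above every scrambled library in every library labelled S100a11 shRNA, 3 of the 10 bile acid genes against 1.16% of all tested genes, and 0 of the 10 lay below, against 68.2%. The log2 ratio of each gene to the mean log2 level of the 10 markers differed by 3.23 for Slco1a1, 1.65 for Cyp7b1 and 0.64 for Cyp8b1, with no overlap. For Slc10a1, Cyp27a1 and Nr1h4 the differences were 0.22, 0.14 and 0.00, and for Baat -0.11, each with overlapping groups. Cyp7a1 differed by 0.38, Abcb11 by -0.46 and Nr0b2 by -0.96, also with overlap. The marker mean itself was 0.72 higher on the log2 scale. With the sum of the markers in place of their mean, a sum in which Alb weighs most, the same 3 genes lay above, with differences of 3.56, 1.98 and 0.97, against 2.81% of all tested genes, and 0 lay below, against 38.2%. For Slc10a1, Cyp27a1, Nr1h4 and Baat the differences to the sum were larger, at 0.544, 0.471, 0.33 and 0.215, so the sign of Baat turned. Cyp7a1, Abcb11 and Nr0b2 stood at 0.711, -0.135 and -0.635, and these 7 genes all overlapped. These ratios were added after the other values were seen and carry no test.

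**Figure D4:**
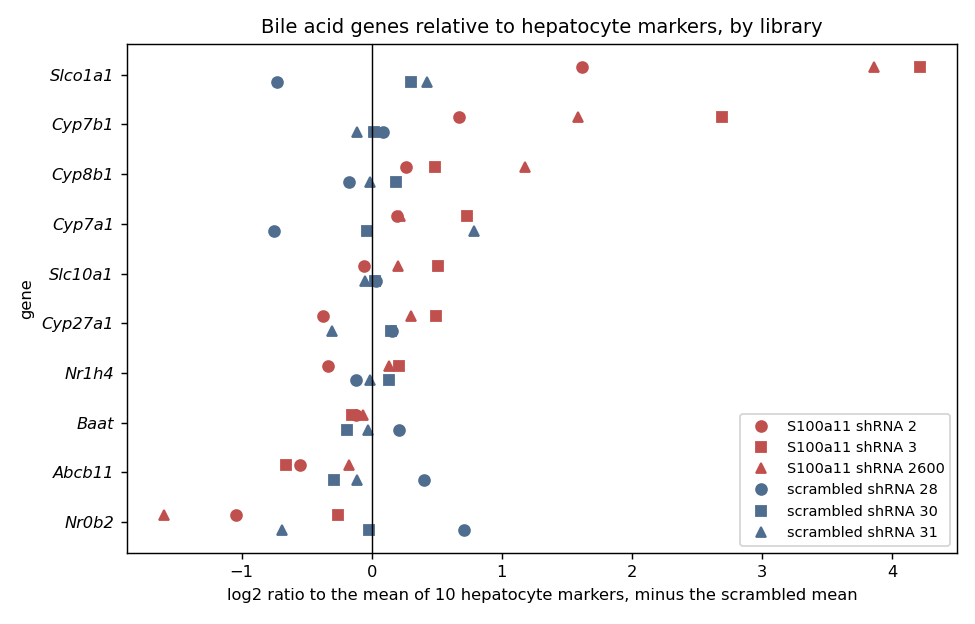
Log2 ratio of each bile acid gene to the mean log2 level of 10 hepatocyte markers in the same library, minus the scrambled mean (horizontal axis), with 1 marker shape per library, libraries labelled S100a11 shRNA in red above scrambled libraries in blue. Slco1a1, Cyp7b1 and Cyp8b1 separate the groups upwards, as 1.16% of all tested genes do, and the other 7 genes overlap.

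Calls in a wider set of bile acid genes were also in the higher direction. Of 60 further genes in 5 lists 55 were tested, and 17 were higher and 0 lower at an edgeR adjusted p under 0.05, where 5.82% of all tested genes were called higher and 8.28% lower. Their median log2 change was 0.50, against 0.04 over all tested genes. The lists were chosen with earlier results of these data known. With library totals alone 7 were higher and 2 lower, and the medians were 0.14 and -0.32. There 2.05% of all tested genes were called higher and 20.5% lower. Without library 3, scrambled library 28, scrambled library 30 or scrambled library 31 the higher calls numbered 7, 11, 3 and 7. In these fits 2.16%, 2.55%, 1.12% and 2.1% of all tested genes were called higher. Without library 2 the higher calls numbered 25, with 3 lower, where 9.13% of all tested genes were called higher and 12.0% lower.

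Of 17 other synthesis and conjugation enzymes 8 were higher and 0 lower, with a median log2 change of 0.62. Leaving out library 3, 28, 30 or 31 reduced these calls to 2, 3, 0 and 2, and with library totals alone 2 were higher and 1 lower. The peroxisomal thioesterase Acot8 stood at 27.9 ± 3.53 CPM in the libraries labelled S100a11 shRNA, against 15.9 ± 0.55 CPM in the scrambled libraries (SD, n = 3 each, 1.75-fold, edgeR adjusted p = 0.00972). Hsd17b4, the peroxisomal multifunctional enzyme, was 1.63-fold higher (edgeR adjusted p = 0.0164). The acyl-CoA synthetase Slc27a2 was 2.03-fold higher and the peroxisomal membrane carrier Abcd3 1.82-fold higher (edgeR adjusted p = 0.0179 and 0.0187).

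Other sinusoidal carriers gave 2 rises among 8 tested genes. Slc22a7, an organic anion carrier (OAT family), stood at 20.2 ± 11.7 CPM in the S100a11 shRNA libraries, against 4.46 ± 1.09 CPM in the scrambled ones (SD, n = 3 each, 4.53-fold, edgeR adjusted p = 0.0125), and Slco2b1 was 1.47-fold higher (edgeR adjusted p = 0.0299). Of 8 other canalicular genes 2 were higher, the efflux pump Abcg2 by 1.77-fold and Abcg8, a subunit of the sterol exporter, by 1.66-fold (edgeR adjusted p = 0.00939 and 0.0439). Without scrambled library 30 neither list had a call, and without library 3, 2600 or 31 each had 1. Among 16 tested sensors and regulators 3 were higher, and 6 without library 2. Nr1i3, encoding the xenobiotic receptor CAR, stood at 975 ± 355 CPM in the S100a11 shRNA libraries, against 263 ± 67.8 CPM in the scrambled ones (SD, n = 3 each, 3.70-fold, edgeR adjusted p = 0.00828). Nr1i2, encoding PXR, was 1.94-fold higher (edgeR adjusted p = 0.00836).

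Of 6 tested detoxification genes 2 were higher, and 1 without library 3, scrambled library 30 or scrambled library 31. The sulfotransferase Sult2a8 stood at 265 ± 123 CPM in the S100a11 shRNA libraries, against 34.8 ± 12.0 CPM in the scrambled ones (SD, n = 3 each, 7.61-fold, edgeR adjusted p = 0.00508), and Ugt1a1, the bilirubin glucuronosyltransferase, was 1.76-fold higher (edgeR adjusted p = 0.0264). Slc51a, which encodes a basolateral bile acid exporter subunit, and Fgf15, the ileal hormone that represses Cyp7a1, held 0 counts in every library.

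**Figure D5:**
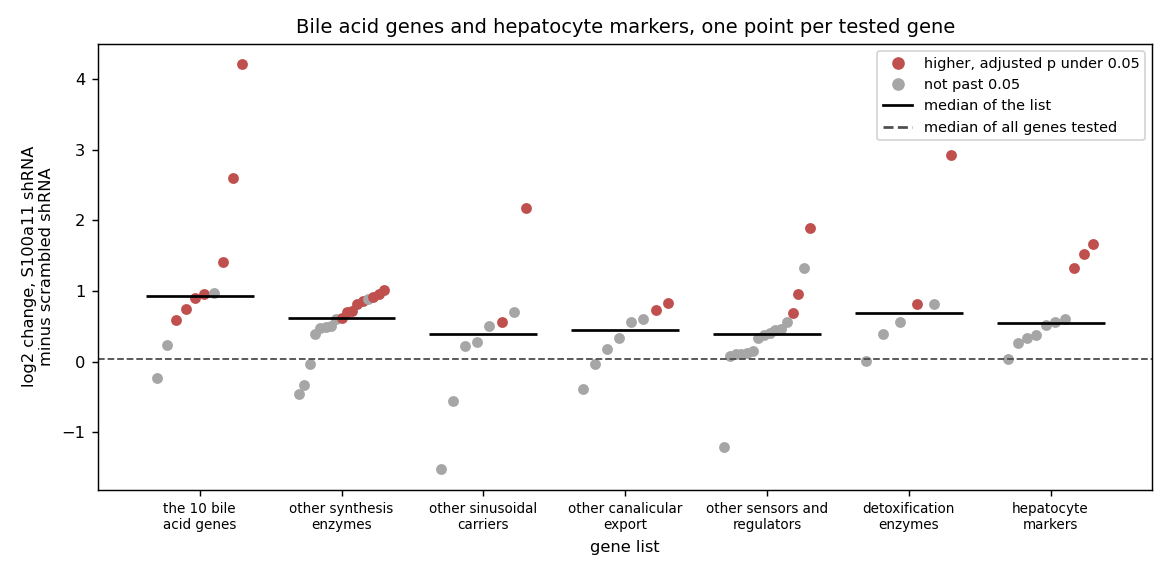
Log2 change of each tested gene, libraries labelled S100a11 shRNA minus scrambled shRNA libraries (vertical axis), for the 10 bile acid genes, 5 lists of other bile acid genes and 10 hepatocyte markers (horizontal axis). Solid lines are list medians and the dashed line is the median of all tested genes at 0.04. The median is 0.93 for the 10 bile acid genes, 0.38 to 0.69 in the other bile acid lists and 0.54 for hepatocyte markers, all with TMM scaling. With library totals alone, not drawn, these medians are 0.56, 0.02 to 0.31 and 0.20, and that of all tested genes is -0.32.

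Cyp7b1 and Slco1a1 are known as male-predominant transcripts of mouse liver, and further genes of that kind were counted beside them. These further genes were chosen with earlier results of these data known, so their counts are not independent support. The sex of the mice is not given in the labels. Of 15 such genes 13 were higher and 0 lower, where 5.82% of all tested genes were called higher and 8.28% lower. Their median log2 change was 2.04, against 0.04 over all tested genes. C6 and Mup20 were not called (log2 change 1.08 and -0.25). Mup20 was high in both groups, with means of 1069 CPM in the libraries labelled S100a11 shRNA and 1276 CPM in the scrambled libraries. Elovl3, a fatty acid elongase, was 12.3-fold higher and the P450 gene Cyp2d9 4.10-fold higher (edgeR adjusted p = 0.00668 and 0.00828). Mup7 and Mup11, near-identical copies whose reads may be divided among the family, had log2 changes of 8.71 and 6.12 (edgeR adjusted p = 0.0054 and 0.00596). Mup7 held 35.7, 990 and 1529 CPM in libraries 2, 3 and 2600, against 2.56, 1.92 and 1.63 CPM in scrambled libraries 28, 30 and 31, so library 2 was far below libraries 3 and 2600. Without scrambled library 30 the higher calls in this list numbered 5, where 1.12% of all tested genes were called higher. Without library 2 they numbered 14, where 9.13% of all tested genes were called higher. Of 15 tested female-predominant genes 2 were higher and 1 lower, with a median log2 change of 0.205. Without library 2600 the list had 6 higher and 1 lower of 16 tested, where 4.07% of all tested genes were higher and 6.29% lower. Only 1 was higher without library 3, scrambled library 28 or scrambled library 30, where 2.16%, 2.55% and 1.12% of all tested genes were. Acot3 was 9.93-fold and Prlr 2.11-fold higher, and Cyp17a1 2.84-fold lower (edgeR adjusted p = 0.0117, 0.0387 and 0.0386).

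Profiles over the 6 libraries were compared by the mean absolute difference in log2 CPM (prior count 2) after each gene was centred on its scrambled mean, among the 12093 genes that averaged 2 CPM or more and had a symbol other than a predicted model. Nearest to Slco1a1 were Mup19, Mup9 and Mup16, at distances of 0.353, 0.406 and 0.429, all from the family of near-identical Mup copies. Nearest to Cyp7b1 were Sult5a1, Slc22a7 and Slc22a28, at 0.291 to 0.299, and each of these was lowest in library 2 of the libraries labelled S100a11 shRNA, as Cyp7b1 was. Nearest to Cyp7a1 were Errfi1, Tsc22d3 and Nxpe2, at 0.251 to 0.253. Nr0b2 lay nearest to Mir6921, Hist1h1e and Ugt2b35, at 0.141 to 0.221, and within the scrambled group each of the 3 was highest in library 28, as Nr0b2 was. Shared highest or lowest libraries follow from the selection by profile and are no separate result.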

How the data were processed

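Total RNA from liver was made into stranded, ribosomal RNA-depleted libraries, per the labels' protocols, and 6 libraries were analysed. The authors deposited whole-number counts for each Ensembl gene with a gene length, and the submitters' processing notes name mm10. No source used here names the aligner, counter or strand setting.

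Low genes were removed with filterByExpr (at least 10 counts, total of 15), so that 19352 of 43346 genes and at least 99.95% of every library's counts remained. R 4.3.3 with edgeR 4.0.16 fitted the group difference (TMM, glmQLFit without its legacy option, glmQLFTest), with Benjamini-Hochberg adjustment over the tested genes and a call at an adjusted p under 0.05. The common biological coefficient of variation came to 0.223. Exon lengths and strands came from GENCODE M21. Ratios were compared with exact permutation tests (scipy 1.17.1). limma 3.58.1 and DESeq2 1.42.0 served as alternatives, tables were made with pandas 2.3.3 under python 3.11.15, and the fit was tested on simulated data.

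No pair of libraries was a duplicate, since the chi-square statistic averaged 48.4 or more a gene in all of them. By the same statistic library 2 lay nearer to scrambled libraries 28, 30 and 31 (193.1, 222.8 and 158.1) than to libraries 3 and 2600 (235 and 348.8). The statistic scales by library totals alone, grows with depth and weighs abundant genes most. Gm26917 is among these, at 3.99%, 6.44% and 10.85% of counts in libraries 2, 3 and 2600. The order therefore does not rank likeness over all genes. The reason was not tested. The members and lists were chosen with earlier results of these data known. The genes named were S100a11, the members, up to 4 called genes of smallest p in each other bile acid list and each sex-biased list, and the 3 nearest profiles of 4 members. Marker genes and genes at 0 counts fall outside that rule and were chosen after their values were seen. 1 gene that the rule names is not reported here.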

Additional observations from a re-analysis of the deposited data

How the results depend on the processing

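The calls of Slco1a1, Cyp7b1 and Cyp8b1 stood in all 19 alternatives tried for the gene tests. They covered the scaling (RLE, upper-quartile, totals alone), the filter (absent, or 1 CPM in 3 libraries), the removal of Gm26917 or of the 20 most abundant genes, the tool (DESeq2, limma voom, voom with quality weights, robust prior, and the legacy fit, added after seeing the data), an adjusted p of 0.1 and each library left out. No call could be lost at an adjusted p of 0.1, which reads the same fit at a looser threshold. With library totals alone 4 of the 10 genes were higher, 397 genes were higher and 3970 lower in all, and 7 other bile acid genes were higher and 2 lower. The log2 change of Abcb11 turned to -0.13 there. DESeq2 called 26 other bile acid genes higher, limma voom with quality weights 27 higher and 1 lower, and an adjusted p of 0.1 gave 26 higher and 1 lower, with 1819 genes higher in all. DESeq2 and quality weights called 8.38% and 8.52% of all tested genes higher. The S100a11 log2 change passed the threshold with library totals (-1.90), limma voom (-1.89), quality weights (-2.24) and an adjusted p of 0.1 (-1.57).

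Leaving out 1 library gave 3 to 7 bile acid genes higher and 0 lower, 221 to 1806 genes higher and 503 to 2370 lower in all, and 3 to 25 other bile acid genes higher and 0 to 3 lower. The log2 change of S100a11 was -2.75 to -1.22, that of Nr0b2 -0.67 to 0.22 (0.22 without scrambled library 28) and that of Abcb11 0.05 to 0.47. The Cyp8b1 to Cyp7a1 log2 difference was -0.14 to 0.55, at -0.09 without library 2600 and -0.14 without scrambled library 31. The cause was not tested. The other 3 ratios kept their sign in every alternative. With the longest transcript or the table's length 14 and 18 of 20 places in the order per kilobase were kept. No paired analysis was possible because the groups share no replicate numbers. Each bile acid gene held at least 304 counts in every library, and the number of libraries limits the precision.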
